A study of Mus musculus with 12 samples.

Results

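NU1 cells are a line of normal mouse urothelium, the epithelium that lines the bladder, and became immortal on their own during serial passage. Their entry into quiescence was followed here in control cells, which carried the control hairpin shNT, across all genes measured by poly(A) RNA-seq. The comparison was between 6 of the 12 libraries of the series, taken by their labels, though the main fit held all 12. There were 3 libraries of proliferating cells and 3 of cells at day 7 of quiescence, each pair from 1 of 3 experiments numbered 5, 7 and 9. The other 6 libraries are the same 2 states in cells carrying a hairpin against Stag2, a subunit of cohesin. All cells were grown in a medium with serum, EGF, insulin, transferrin and hydrocortisone. To make cells quiescent, they were brought to confluence and then kept in that medium with 1 µM rosiglitazone, an agonist of the nuclear receptor PPARγ, and 0.5 µM erlotinib, an inhibitor of the EGF receptor kinase. Confluence, the 2 drugs and time in culture therefore changed together, and their separate effects cannot be told apart. Each experiment was also 1 labelled batch, and nothing else says that the libraries came from separate cultures. The main fit took experiment as a block, so its p-values measure the spread left after differences between the 3 experiments are removed. That spread was estimated over all 12 libraries, the Stag2-knockdown ones included, and covers these 3 experiments only.

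Quiescence is a reversible exit from the cell cycle. In a dividing cell, cyclin D and cyclin E with their kinases phosphorylate the retinoblastoma family (pocket) proteins, which frees E2F factors to switch on genes of DNA replication, and later B-Myb and FoxM1 switch on genes of mitosis. In a resting cell, CDK inhibitors block those kinases, and the DREAM complex, built from the pocket proteins p130 or p107, repressor E2F factors and the MuvB core, sits at the same promoters and holds them off. The urothelium of the adult bladder renews slowly, and most of its cells rest in this state. Its layers run from basal cells, marked by Krt5 and Krt14, to umbrella cells at the surface, which carry uroplakins, and PPARγ signalling with EGF receptor inhibition is a known way to drive cultured urothelial cells toward the surface type.

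The promoters of mitotic genes carry a short element, the CHR (TTTGAA), at which the DREAM complex and later B-Myb and FoxM1 bind through the MuvB core, and many replication genes carry E2F sites. Nearly every gene of these 2 groups fell in the comparison. Stretches of 7 of their promoters are shown, picked among promoters that hold a match to these elements. They are examples only, and the shares of promoters with a match are given below. The stretches come from RefSeq promoters on build GRCm38.p6 and are read 5′ to 3′ on the strand of the gene. In the first 4 stretches, which end 1 base before the start site, capitals mark the CHR and the CCAAT box on either strand.
Cdk1, chr10:69352913-69353012, minus strand: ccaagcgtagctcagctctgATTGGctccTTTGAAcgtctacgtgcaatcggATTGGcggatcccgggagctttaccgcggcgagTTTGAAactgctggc
Cdc20, chr4:118437344-118437443, minus strand: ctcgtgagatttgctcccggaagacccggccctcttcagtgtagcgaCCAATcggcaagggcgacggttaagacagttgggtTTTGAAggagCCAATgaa
Top2a, chr11:99024190-99024289, minus strand: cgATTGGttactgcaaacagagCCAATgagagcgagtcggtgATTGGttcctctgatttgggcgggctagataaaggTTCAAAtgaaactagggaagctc
Ube2c, chr2:164769829-164769928, plus strand: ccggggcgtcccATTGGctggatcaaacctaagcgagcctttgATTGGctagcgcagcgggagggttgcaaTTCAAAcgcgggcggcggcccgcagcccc

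In the next 3 stretches, capitals mark matches to the E2F site, written as TTTGGCGC or TTTCGCGC on either strand, and overlapping matches run together. They start 170, 125 and 100 bases before the start site of Mcm5, Mcm6 and Orc1, which encode parts of the replicative helicase and of the origin recognition complex.
Mcm5, chr8:75109339-75109438, plus strand: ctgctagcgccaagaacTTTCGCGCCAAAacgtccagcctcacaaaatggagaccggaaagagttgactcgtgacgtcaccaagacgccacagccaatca
Mcm6, chr1:128359731-128359830, minus strand: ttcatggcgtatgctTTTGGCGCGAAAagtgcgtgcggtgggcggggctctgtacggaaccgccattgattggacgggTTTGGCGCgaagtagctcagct
Orc1, chr4:108579354-108579453, plus strand: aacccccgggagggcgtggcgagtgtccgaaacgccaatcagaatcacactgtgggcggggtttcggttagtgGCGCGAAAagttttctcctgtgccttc

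RefSeq promoters of 250 bases before to 50 bases after the start site were matched by symbol for 47 of 55 listed mitosis genes and 32 of 40 listed genes of origin licensing and replication. Promoters of listed and tested genes are counted by gene, with a match if any promoter of the gene holds one. The shares of all promoters count each promoter singly, so the 2 kinds of share are not strictly alike. The CHR letters were found on either strand in 33 of 47 mitosis promoters (70.2%) and in 6 of 32 replication promoters (18.8%), against 17.9% of all 32851 mouse promoters of the same length. The E2F letters showed the opposite order, with 11 of 32 replication promoters (34.4%) and 4 of 47 mitosis promoters (8.51%), against 0.813% of all promoters. Among the 9883 of 12406 tested genes that matched a promoter by symbol, the shares were 14.1% for the CHR and 1.85% for E2F. CCAAT, which was in 37.4% of all promoters, was in 33 of 47 mitosis promoters and 18 of 32 replication promoters. Most CHR matches lay close to the start site: 30 of 47 mitosis promoters had one within 50 bases of it, against 4.94% of all promoters. An E2F match lay within 50 bases of it in 8 of 32 replication promoters, against 0.28% of all promoters. Among mitosis genes, the median log2 fold change was -4.50 with and -4.28 without a CHR match, and among replication genes it was -2.92 with and -2.22 without an E2F match. The order was the other way for the other pairing: it was -3.51 with and -4.37 without an E2F match among mitosis genes, and -2.20 with and -2.48 without a CHR match among replication genes. That pairing rests on 4 mitosis genes and 6 replication genes with a match, and none of these differences was tested. A match to these letters is a description of the sequence and does not show that a factor binds there.

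**Figure D1:**
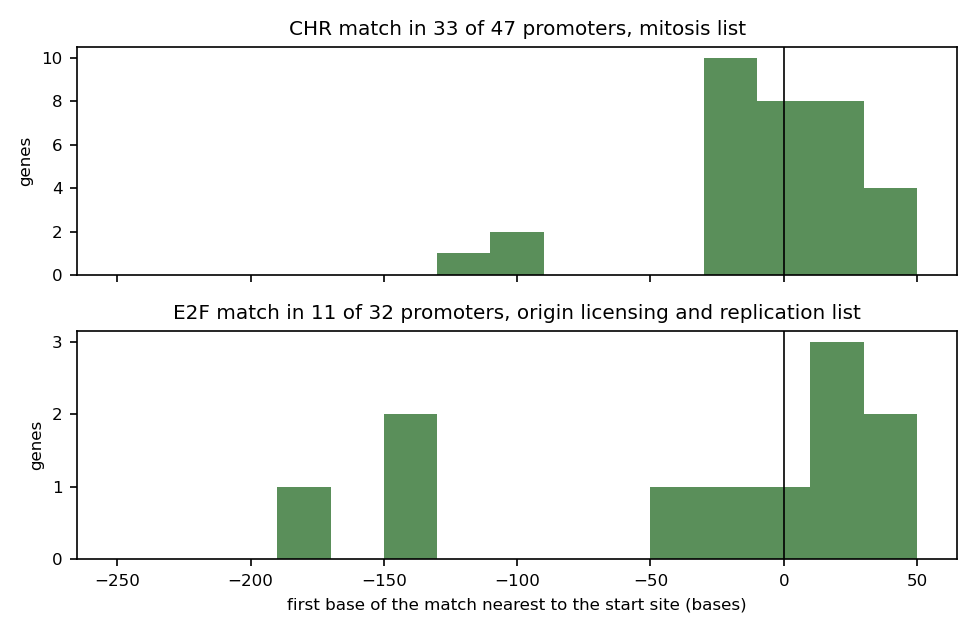
Number of genes (y axis) by the position of the CHR or E2F match nearest to the start site (x axis, bases from the start site at 0, bins of 20 bases) in the promoters of mitosis genes (top, CHR) and of origin licensing and replication genes (bottom, E2F). CHR matches crowd around the start site, with 33 of 47 genes holding one in a promoter, and 8 of the 11 E2F matches also lie within 50 bases of it.

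The control libraries held 14524429 to 18261759 counts each. CPM is the usual scale of counts divided by the library's total, after that total is multiplied by its TMM scaling factor. On this scale 3 counts, used as a floor, correspond to 0.168 to 0.207 CPM. Values below are CPM, always in the order of experiments 5, 7 and 9. CPM values are relative to a library's scaled total, so a change in the RNA content of a cell was not measured. Stag2, the target of the other hairpin, stood at 139, 145 and 113 CPM in proliferating cells and 128, 126 and 107 CPM in quiescent cells, which overlapped (log2 fold change -0.13, SE 0.16, adjusted p = 0.545 by edgeR). Of 20 urothelial markers, 16 passed 1 CPM in at least 1 control library, and their summed level was 13400 to 19200 CPM in proliferating and 13200 to 20000 CPM in quiescent cells. Most of this sum was keratins Krt7, Krt8, Krt18, Krt19 and Krt20, whereas Trp63 and Upk3a had 0 counts in all 6 libraries and Krt5, Upk1a and Upk2 stayed under 4 CPM. Of the other cell types checked, 8 fibroblast markers summed to at most 2.27 CPM with 4 of them at 0, and markers of smooth muscle and endothelium stayed under 1 CPM in sum. The 5 leukocyte markers summed to at most 9.42 CPM, nearly all of it Cd68, and the 5 neuron and glia markers to at most 2.2 CPM.

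Of 12406 genes tested, 4374 changed between the states (edgeR quasi-likelihood test with experiment as a block, Benjamini-Hochberg adjusted p under 0.05), which is 35.3% of them. Of these, 2083 rose with quiescence (16.8% of all genes tested) and 2291 fell (18.5%), so 47.6% of the changed genes were higher. With scaling by library totals 54.6% were higher, so which direction held more genes depended on the scaling. Large falls were more numerous than large rises, though the largest single change was a rise (log2 fold change 9.24, against -8.08 for the largest fall). The median absolute log2 fold change was 0.71 for called rises and 0.79 for called falls. By at least 2-fold, 641 genes rose (5.17%) and 916 fell (7.38%), by at least 8-fold 65 rose and 242 fell, and by at least 16-fold 20 rose and 130 fell. The median log2 fold change over all genes was 0.008, so the sign of a change is relative to a centre close to 0. In 4417 genes (35.6%) the 3 proliferating and 3 quiescent values did not overlap, and 3373 of the 4374 changed genes were among them. The direction was the same within all 3 experiments for 4345 of the changed genes. For 4211 of the 8032 genes not called, the 95% confidence interval of the fold change lay within 1.5-fold in either direction, and the others were not resolved that finely. Without the experiment block, 2481 genes changed (20%), 1033 up (8.33%) and 1448 down (11.7%), and all of these were among the 4374. In a fit of only the 6 control libraries, 3325 of 11954 genes tested changed, 1503 up and 1822 down. The largest dependence on 1 library was on experiment 9. Without its quiescent library 2839 of 12582 genes tested changed, and without its proliferating one 2877 of 12602, with 1292 and 1289 higher. Without the proliferating library of experiment 7, 3053 of 12639 changed and 1357 were higher, and without its quiescent one 3075 of 12637 changed. For experiment 5 the totals were 4058 of 12625 without the proliferating and 3524 of 12648 without the quiescent library. Calls of gene lists in these other fits, given below, are to be read beside these totals and not beside 35.3%.

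The response was widest in experiment 9. Within single experiments, 583, 868 and 1314 genes were at least 2-fold higher in the quiescent library and 1034, 1041 and 1337 at least 2-fold lower, values for 1 pair of libraries each and without a test. Over all 12406 genes, which are not independent replicates, the log2 differences of experiments 5 and 7 had a Pearson r of 0.794, those of 5 and 9 of 0.728 and those of 7 and 9 of 0.756, without a test. Between 29 and 49 genes were at least 2-fold higher in 1 experiment and at least 2-fold lower in another for any pair of experiments.

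Among genes whose log2 CPM averaged at least 2 and that changed the same way in all 3 experiments, the 10 largest increases were in Cd200r3, Bicc1, Kcnj16, Aldh1a1, Ceacam1, Tgfb2, Atp1b1, D0H4S114, Stra6 and Kit. Cd200r3, a member of the CD200 receptor family, stood at 1.91, 0.981 and 0.511 CPM in proliferating cells and 34.6, 18.2 and 8.89 CPM in quiescent cells (log2 fold change 4.15, SE 0.25, adjusted p = 3.31e-06 by edgeR). Bicc1, an RNA-binding protein, had 1.4, 8.66 and 5.06 CPM in proliferating cells and 36.7, 95.3 and 48.6 CPM in quiescent cells (log2 fold change 3.76, SE 0.32, adjusted p = 1.60e-05 by edgeR). All quiescent values of both genes were above all proliferating ones. Of 2 genes of ion transport, Kcnj16, an inward rectifier potassium channel, rose from 4.43, 16 and 8.64 CPM in proliferating cells to 101, 155 and 102 CPM in quiescent cells (log2 fold change 3.75, SE 0.45, adjusted p = 1.80e-04 by edgeR), and Atp1b1, a subunit of the sodium-potassium pump, rose 11.3-fold (log2 fold change 3.50). Kit, the receptor for stem cell factor, was at 15, 8.25 and 8.13 CPM in proliferating cells and 81.8, 143 and 77.2 CPM in quiescent cells (log2 fold change 3.29, SE 0.40, adjusted p = 2.00e-04 by edgeR), again with no overlap. Tgfb2, a secreted TGF-β ligand, was at 2.41, 3.64 and 1.7 CPM in proliferating cells and 33, 36.7 and 27.5 CPM in quiescent cells (log2 fold change 3.67, SE 0.24, adjusted p = 4.44e-06 by edgeR), and its groups did not overlap either. Ceacam1, an adhesion molecule, was less even: 3.87, 0.519 and 2.56 CPM in proliferating cells and 44, 2.39 and 65.5 CPM in quiescent cells, where the quiescent library of experiment 7 lay inside the proliferating range (log2 fold change 3.68, SE 0.69, adjusted p = 0.0026 by edgeR). D0H4S114, also known as Nrep, rose with log2 fold change 3.49. Aldh1a1 and Stra6 are described with the retinoid genes. Cd200r3 and Ceacam1 have close paralogs that reads can match, so the share of each is uncertain. Leaving out proliferating experiment 5 raised the log2 fold change of Ceacam1 to 4.32.

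The 10 largest decreases under the same rule were all genes of DNA replication or cell division, and none had overlapping groups. Top2a, the topoisomerase that untangles replicated chromosomes, stood at 292, 370.0 and 357 CPM in proliferating cells and 1.52, 8.14 and 14.5 CPM in quiescent cells (log2 fold change -5.68, SE 0.52, adjusted p = 2.84e-05 by edgeR). Mki67, the standard marker of cycling cells, was at 185, 225 and 189.8 CPM in proliferating cells and 0.552, 6.24 and 7.93 CPM in quiescent cells (log2 fold change -5.62, SE 0.56, adjusted p = 4.66e-05 by edgeR). The quiescent library of experiment 5 was lowest for both, and those of experiments 7 and 9 kept more of each transcript. The others were Pbk (-5.55), 2810417H13Rik (-5.49), Bub1 (-5.40), Kntc1 (-5.30), Ccnb1 (-5.27), Cenpf (-5.26), Kif15 (-5.23) and Kif4 (-5.22), with log2 fold changes in parentheses. They encode a mitotic kinase, the PCNA-associated factor Pclaf, 2 spindle checkpoint proteins, cyclin B1, a kinetochore protein and 2 kinesin motors. Experiment 9 had the highest quiescent value of each of the 10. Without its quiescent library the log2 fold changes of the 5 that moved by over 1.5-fold were -6.08 for 2810417H13Rik, -6.28 for Bub1, -6.25 for Ccnb1, -6.11 for Cenpf and -6.28 for Top2a. In bulk RNA, fewer cycling cells and less of a transcript per cell cannot be told apart.

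**Figure D2:**
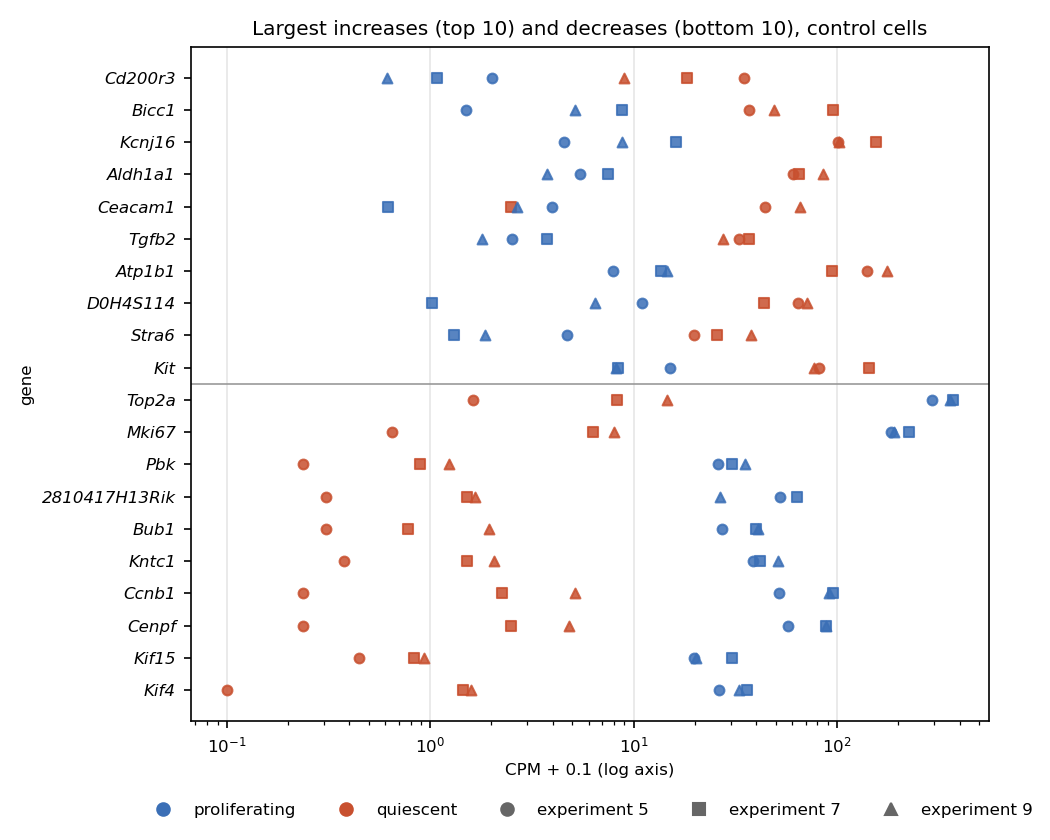
Level of the 10 genes with the largest increase (upper rows) and the 10 with the largest decrease (lower rows) in each control library, as CPM + 0.1 on a log axis; blue is proliferating, orange is quiescent, and the marker shape gives the experiment. Every quiescent point lies right of the proliferating points in the upper rows except Ceacam1 in experiment 7, and in the lower rows the quiescent point of experiment 5 is the leftmost for all 10 genes.

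The machinery that carries a cell from G1 into S phase changed unevenly. Of 10 G1 cyclins, kinases and their phosphatase, 1 rose and 7 fell (80% called, against 35.3% of all genes). The median log2 fold change was -0.97. Ccnd1, cyclin D1, which couples growth factor signals to the cycle, stood at 1930.2, 2223 and 2294 CPM in proliferating cells and 520.2, 857 and 474 CPM in quiescent cells (log2 fold change -1.83, SE 0.19, adjusted p = 7.47e-05 by edgeR), with every quiescent value below every proliferating one. Ccnd2, cyclin D2, moved the other way, with 318, 399 and 419.7 CPM in proliferating cells and 763, 790.2 and 424 CPM in quiescent cells (log2 fold change 0.76, SE 0.21, adjusted p = 0.0164 by edgeR). Its rise came from experiments 5 and 7, and in experiment 9 both states were level. For Ccnd2, the adjusted p was 0.069 without proliferating experiment 5, 0.0781 without proliferating experiment 7, 0.0717 without quiescent experiment 5 and 0.0596 without quiescent experiment 7. It was 0.0599 in a fit of only the 6 control libraries. Cyclin D3, Ccnd3, did not pass the test (log2 fold change 0.34, SE 0.17, adjusted p = 0.15 by edgeR), and its difference from the other D-type cyclins was not tested. The S-phase cyclins fell furthest. Ccne2, cyclin E2, was at 7.46, 10.3 and 7.22 CPM in proliferating cells and 0.414, 0.245 and 0.239 CPM in quiescent cells (log2 fold change -4.78, SE 0.31, adjusted p = 4.27e-06 by edgeR), and Ccna2, cyclin A2, was at 60.1, 112 and 109.8 CPM in proliferating cells and 0.621, 3.0 and 5.13 CPM in quiescent cells (log2 fold change -5.19, SE 0.44, adjusted p = 1.61e-05 by edgeR). The groups of both were far apart. Ccne1 and the kinase Cdk2 also fell, with log2 fold changes of -2.24 and -1.20, while Cdk6 was not called (log2 fold change -0.64, SE 0.24, adjusted p = 0.0597 by edgeR).

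The CDK inhibitors, which stop those kinases, did not move as a group. Of 7 tested, 2 rose and 1 fell, so 42.9% were called, against 35.3% of all genes. Cdkn1a, which encodes p21, stood at 565, 468 and 337 CPM in proliferating cells and 1185, 1073 and 881 CPM in quiescent cells (log2 fold change 1.22, SE 0.11, adjusted p = 3.20e-05 by edgeR). Cdkn1c, which encodes p57, also rose, with 6.79, 4.91 and 4.43 CPM in proliferating cells and 17.8, 11.9 and 15.5 CPM in quiescent cells (log2 fold change 1.49, SE 0.26, adjusted p = 0.00153 by edgeR). In both genes the groups were separate. Cdkn1b, which encodes p27, an inhibitor often high in resting cells, overlapped, at 48.5, 54.8 and 49.95 CPM in proliferating cells and 48.4, 42.6 and 60.4 CPM in quiescent cells (log2 fold change -0.031, SE 0.13, adjusted p = 0.878 by edgeR, 95% interval -0.33 to 0.26). Its sign differed between experiments and flipped under scaling by library totals. The INK4 genes gave a rise in none of 4: Cdkn2c, which encodes p18, fell (log2 fold change -2.80, SE 0.37, adjusted p = 3.08e-04 by edgeR), and Cdkn2a, Cdkn2b and Cdkn2d had log2 fold changes of 0.41, 0.40 and -0.29 without passing the test.

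The pocket proteins did not move together. Rbl1, which encodes p107 and is itself an E2F target in dividing cells, stood at 41.1, 50.8 and 52.1 CPM in proliferating cells and 10.4, 11.8 and 9.84 CPM in quiescent cells (log2 fold change -2.16, SE 0.17, adjusted p = 1.32e-05 by edgeR). Rbl2, which encodes p130, the pocket protein of DREAM in resting cells, stood at 55, 39.5 and 31.3 CPM in proliferating cells and 61.6, 56.6 and 52.5 CPM in quiescent cells (log2 fold change 0.47, SE 0.17, adjusted p = 0.0475 by edgeR, and 0.227 without the experiment block), and it was higher within each experiment while the groups overlapped. For Rbl2, the adjusted p was 0.137 without proliferating experiment 7, 0.173 without proliferating experiment 9, 0.112 without quiescent experiment 7 and 0.182 without quiescent experiment 9. It was 0.0525 in a fit of only the 6 control libraries and 0.0542 with no filter on low counts. Rb1 itself was not called (log2 fold change 0.10, SE 0.14, adjusted p = 0.592 by edgeR, 95% interval -0.20 to 0.41). Over the 13 listed pocket proteins and DREAM members, 2 rose and 7 fell (69.2% called, against 35.3% of all genes). The calls numbered 5 without the experiment block, where 20% of all genes were called. They also numbered 5 without proliferating experiment 7, without quiescent experiment 7 and without quiescent experiment 9. The MuvB subunits Lin9 (-1.27) and Lin54 (-1.12), the repressor E2f4 (-0.66) and its partner Tfdp1 (-1.04) fell. Cell-cycle transcription factors fell further. All 7 listed were lower, against 18.5% of all genes falling, with a median log2 fold change of -4.08. They were E2f2 (-5.99), E2f8 (-4.91), Mybl2 (-4.72), E2f7 (-4.08), Foxm1 (-3.78), E2f1 (-2.08) and E2f3 (-0.37, adjusted p without the experiment block = 0.287). Among them Mybl2, which encodes B-Myb, was at 25.3, 40.8 and 30.9 CPM in proliferating cells and 0.897, 1.59 and 1.25 CPM in quiescent cells, and Foxm1 was at 52.9, 76.4 and 91.2 CPM in proliferating cells and 3.04, 5.87 and 7.87 CPM in quiescent cells, both with separate groups. For E2f3, the adjusted p was 0.131 without proliferating experiment 7, 0.123 without proliferating experiment 9, 0.174 without quiescent experiment 7 and 0.0753 without quiescent experiment 9. It was 0.0952 in a fit of only the 6 control libraries and 0.0526 with scaling by library totals. Of these factors, E2f7 and E2f8 are repressors that E2F itself switches on in S phase, and the rest are activators.

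**Figure D3:**
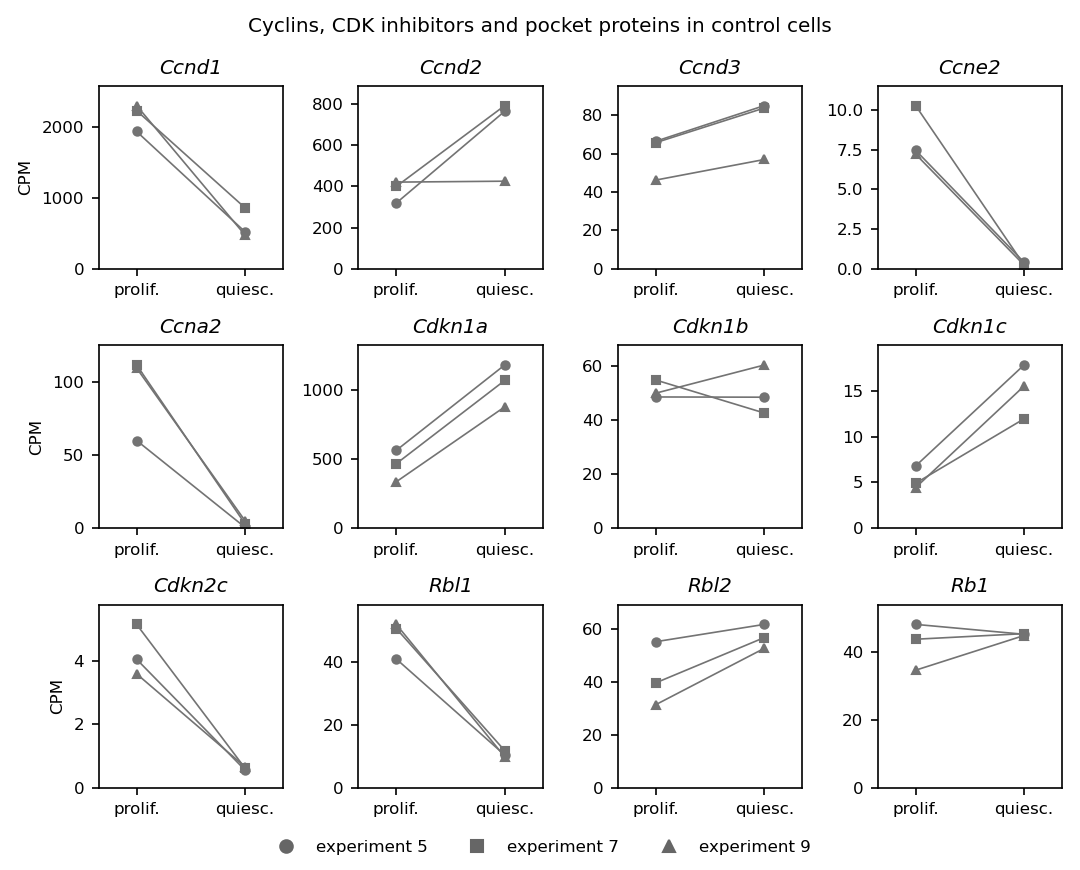
CPM (y axis, from 0) of 12 genes of the cell-cycle switch in proliferating and quiescent control cells; each line joins the 2 libraries of 1 experiment, and the marker shape gives the experiment. Ccnd1, Ccne2, Ccna2, Cdkn2c and Rbl1 fell in all 3 experiments and Cdkn1a and Cdkn1c rose in all 3, whereas Ccnd2 was level in experiment 9 and the lines of Cdkn1b and Rb1 cross.

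Genes that license origins and copy DNA fell without exception. All 40 of 40 listed were lower, against 18.5% of all genes, with a median log2 fold change of -2.46. Together they made up 0.266% ± 0.0283 of a library's counts in proliferating cells and 0.0537% ± 0.0052 in quiescent cells (SD, n = 3). Tk1, thymidine kinase, stood at 51.1, 57.4 and 62.9 CPM in proliferating cells and 1.04, 1.77 and 3.46 CPM in quiescent cells (log2 fold change -4.83, SE 0.35, adjusted p = 6.76e-06 by edgeR), and Cdc6, which loads the helicase, at 53.4, 56.1 and 53.6 CPM in proliferating cells and 2.55, 2.94 and 2.92 CPM in quiescent cells (log2 fold change -4.28, SE 0.20, adjusted p = 8.80e-07 by edgeR). Mcm5, whose E2F matches are shown above, was at 110.0, 151 and 126 CPM in proliferating cells and 3.24, 6.61 and 5.55 CPM in quiescent cells (log2 fold change -4.67, SE 0.16, adjusted p = 3.44e-07 by edgeR). None of the 3 overlapped. The helicase subunits were not lowered equally: Mcm2 and Mcm6 had log2 fold changes of -2.52 and -2.55. The licensing factor Cdt1 (-3.54) and Orc1 (-2.92), which rise and fall within a cycle, also fell, and the smallest fall was in Gins4 (-0.60).

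Mitosis genes had the lowest median of the 30 lists. Of 55 listed, 54 fell and 1 rose, against 18.5% of all genes falling and 16.8% rising, with a median log2 fold change of -4.30. Together they made up 0.323% ± 0.0669 of a library's counts in proliferating cells and 0.0272% ± 0.00954 in quiescent cells (SD, n = 3). Cdk1, the kinase that drives mitosis, stood at 97.5, 127 and 147 CPM in proliferating cells and 5.87, 5.14 and 12.9 CPM in quiescent cells (log2 fold change -4.01, SE 0.27, adjusted p = 5.33e-06 by edgeR). Plk1 stood at 31.2, 59.5 and 71.5 CPM in proliferating cells and 0.276, 1.9 and 3.1 CPM in quiescent cells (log2 fold change -5.10, SE 0.42, adjusted p = 1.40e-05 by edgeR) and Aurkb at 40.7, 50.1 and 65.1 CPM in proliferating cells and 0.69, 2.32 and 4.41 CPM in quiescent cells (log2 fold change -4.52, SE 0.34, adjusted p = 7.98e-06 by edgeR). These are the kinases of spindle and chromosome passage, and their groups were separate. Cdc20 and Ube2c, which turn on destruction of mitotic proteins and whose promoters are shown above, had log2 fold changes of -4.12 and -4.64, the latter -5.55 without quiescent experiment 9. By experiment the list's median was -4.50, -4.38 and -3.65, so the fall was shallowest in experiment 9. The exception was Pttg1, securin, the inhibitor of separase, at 17.1, 14.2 and 16 CPM in proliferating cells and 22.5, 22.8 and 27.8 CPM in quiescent cells (log2 fold change 0.63, SE 0.13, adjusted p = 0.00431 by edgeR). All other listed genes fell by at least 1.91 on the log2 scale, the smallest being the kinetochore subunit Spc25. All 40 replication genes and 55 mitosis genes stayed called without the block, with other size factors, by DESeq2, in a fit of only the 6 control libraries, with scaling by library totals and without any 1 library.

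In the EGF system 4 ligands fell and no receptor passed the test. Of 14 listed receptors, ligands and regulators, 0 rose and 5 fell, a share called (35.7%) near the 35.3% of all genes, with calls numbering 3 without proliferating experiment 9, 3 without quiescent experiment 7 and 2 without quiescent experiment 9. The receptors were not called: Egfr had a log2 fold change of 0.24 (95% interval -0.16 to 0.63), Erbb2 of 0.12 (-0.22 to 0.46) and Erbb3 of 0.42 (-0.057 to 0.90). The ligands amphiregulin, Areg, at 39.6, 62 and 92.3 CPM in proliferating cells and 21.8, 34.3 and 27.4 CPM in quiescent cells (log2 fold change -1.22, SE 0.26, adjusted p = 0.00526 by edgeR), and transforming growth factor α, Tgfa, at 232, 194 and 218 CPM in proliferating cells and 139, 109 and 118 CPM in quiescent cells (log2 fold change -0.82, SE 0.11, adjusted p = 3.96e-04 by edgeR), fell, and neither overlapped. So did Ereg and Hbegf, with log2 fold changes of -1.11 and -1.03. For Ereg, the adjusted p was 0.0562 without proliferating experiment 9 and 0.0663 without quiescent experiment 9. For Hbegf, the adjusted p was 0.0897 without proliferating experiment 7, 0.105 without quiescent experiment 7 and 0.054 without quiescent experiment 9. Downstream, 15 of 25 genes known as outputs of EGFR-MAPK signalling fell and 2 rose (68% called, against 35.3% of all genes). Their median was -0.77. The transcription factors Fosl1, at 30.8, 49 and 65.4 CPM in proliferating cells and 3.8, 6.97 and 1.79 CPM in quiescent cells (log2 fold change -3.64, SE 0.43, adjusted p = 1.47e-04 by edgeR), and Etv4, at 52.2, 69.4 and 73.5 CPM in proliferating cells and 5.24, 10.2 and 4.29 CPM in quiescent cells (log2 fold change -3.40, SE 0.40, adjusted p = 1.47e-04 by edgeR), showed the deepest falls of the list. Feedback inhibitors fell too, among them the ERK phosphatase Dusp6 at 102, 226 and 189 CPM in proliferating cells and 21.6, 50.4 and 20.4 CPM in quiescent cells (log2 fold change -2.56, SE 0.24, adjusted p = 3.02e-05 by edgeR). Spry4 had a log2 fold change of -2.24, Etv5 of -2.47 (-1.88 without proliferating experiment 9) and Myc of -1.15, adjusted p without the experiment block = 0.0578. The 2 that rose were Jun at 34.2, 33.2 and 16.6 CPM in proliferating cells and 94.3, 82 and 60.5 CPM in quiescent cells (log2 fold change 1.55, SE 0.19, adjusted p = 1.90e-04 by edgeR) and the feedback inhibitor Spry1, with a log2 fold change of 0.69. The ERK phosphatase Dusp4 did not pass the test (log2 fold change 0.37, SE 0.20, adjusted p = 0.165 by edgeR).

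Rosiglitazone acts on PPARγ, whose textbook targets are genes of fatty acid handling. Pparg itself was not called, at 3.7, 2.77 and 7.73 CPM in proliferating cells and 5.38, 4.34 and 8.65 CPM in quiescent cells (log2 fold change 0.42, SE 0.25, adjusted p = 0.223 by edgeR). Of 19 listed targets tested, 7 rose and 0 fell, against 16.8% of all genes rising, with a median log2 fold change of 0.31. Without the experiment block 2 rose, against 8.33% of all genes. The calls numbered 4 without proliferating experiment 7 and 4 without proliferating experiment 9. Genes of fatty acid oxidation were among those that rose. Ech1, an auxiliary enzyme of the oxidation of unsaturated fatty acids, was at 64.7, 53.9 and 63.5 CPM in proliferating cells and 89.6, 87.5 and 106 CPM in quiescent cells (log2 fold change 0.64, SE 0.10, adjusted p = 0.00107 by edgeR), and the mitochondrial enzyme and carrier Acadvl (0.74, adjusted p without the experiment block = 0.0655) and Slc25a20 (0.98, adjusted p without the experiment block = 0.0991) also rose. The groups of Ech1 were separate. The lipid droplet coat Plin2 (log2 fold change -0.37, SE 0.17, adjusted p = 0.116 by edgeR) and Cpt1a, which brings fatty acids into mitochondria (log2 fold change 0.79, SE 0.44, adjusted p = 0.194 by edgeR), did not pass. The adipocyte targets Fabp4, Cd36, Plin4 and Pdk4 had too few counts to be tested. By experiment the list's median was 0.15, 0.22 and 0.74.

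Several basal cell genes fell and several luminal regulators rose. Of 16 basal genes, 0 rose and 9 fell, against 18.5% of all genes falling, with a median of -0.88. Without the experiment block 6 of them fell, against 11.7% of all genes. Ngfr, a receptor of basal cells, stood at 1.18, 5.89 and 5.85 CPM in proliferating cells and 0, 0.245 and 0 CPM in quiescent cells (log2 fold change -5.62, SE 0.69, adjusted p = 1.95e-04 by edgeR), and Krt14, the keratin of the basal layer, at 10.6, 6.87 and 9.77 CPM in proliferating cells and 0.414, 0.184 and 0.895 CPM in quiescent cells (log2 fold change -4.22, SE 0.43, adjusted p = 5.48e-05 by edgeR). Both were near the floor in quiescent cells, so the size of their change is imprecise, and that of Ngfr was -4.75 without quiescent experiment 9. Without quiescent experiment 7, both remaining quiescent libraries had 0 counts of Ngfr, and no fold is given. Cd44, a hyaluronan receptor, fell, at 418, 223 and 299 CPM in proliferating cells and 84.4, 87.7 and 65.2 CPM in quiescent cells (log2 fold change -1.99, SE 0.35, adjusted p = 0.00183 by edgeR). The integrin gene Itga3 fell with it, with a log2 fold change of -1.63, while Itgb4 did not pass (log2 fold change -0.39, SE 0.24, adjusted p = 0.231 by edgeR). Of 15 urothelial transcription factors, 6 rose and 1 fell (46.7% called, against 35.3% of all genes). Their median was 0.54, and the calls numbered 4 without the experiment block, where 20% of all genes were called. Gata3, a luminal regulator, stood at 29.8, 27.5 and 26.5 CPM in proliferating cells and 72.5, 41.4 and 118 CPM in quiescent cells (log2 fold change 1.33, SE 0.30, adjusted p = 0.00647 by edgeR), and Elf3, an epithelial ETS factor, at 216, 108 and 77.3 CPM in proliferating cells and 394, 192 and 379 CPM in quiescent cells (log2 fold change 1.30, SE 0.24, adjusted p = 0.00259 by edgeR). In Gata3 the groups were separate, and in Elf3 they overlapped. Also higher were Foxa1 (1.40, adjusted p without the experiment block = 0.0576), Ehf (1.23) and Grhl1 (1.10).

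The markers of the surface layer split. Of 18 luminal and umbrella cell genes tested, 9 rose and 4 fell (72.2% called, against 35.3% of all genes). The calls numbered 7 without the experiment block, where 20% of all genes were called, and 8 without quiescent experiment 9. Krt20, the keratin that marks umbrella cells, fell, at 1305, 1307 and 1059 CPM in proliferating cells and 534, 763 and 569.9 CPM in quiescent cells (log2 fold change -0.99, SE 0.15, adjusted p = 8.00e-04 by edgeR), and so did Krt4 (log2 fold change -2.76, SE 0.39, adjusted p = 4.48e-04 by edgeR). All 3 quiescent values of Krt20 were below its proliferating ones. The claudin Cldn4 rose, at 988, 576 and 755 CPM in proliferating cells and 1689, 1520.0 and 2334 CPM in quiescent cells (log2 fold change 1.25, SE 0.18, adjusted p = 4.95e-04 by edgeR), as did the epithelial sodium channel subunit Scnn1a (1.29), the stretch-sensitive channel Trpv4 (0.99) and Sprr2g (3.26, 3.85 without proliferating experiment 7), a cornified envelope gene with close paralogs. The simple keratins Krt8 and Krt18 were not called, with log2 fold changes of 0.35 and 0.14. Of 4 uroplakin genes tested, 1 rose and 0 fell (25% called, against 35.3% of all genes). That call was not made without the block, in a fit of only the 6 control libraries or without any of 4 of the libraries taken singly. Upk3a had 0 counts in all 6 libraries and Upk1b 7 counts in total, so uroplakins were scarcely measured. Junction genes mostly rose or did not pass: 13 of 29 rose and 1 fell (48.3% called, against 35.3% of all genes). Their median was 0.39. The calls numbered 7 without the experiment block, where 20% of all genes were called, and 9 without proliferating experiment 9. The E-cadherin gene Cdh1 stood at 1723, 1108 and 747 CPM in proliferating cells and 2311, 1714 and 1737 CPM in quiescent cells (log2 fold change 0.76, SE 0.18, adjusted p = 0.00828 by edgeR, and 0.184 without the experiment block), and the tight junction scaffold Tjp3 at 114, 55.7 and 30.5 CPM in proliferating cells and 209, 113 and 154 CPM in quiescent cells (log2 fold change 1.33, SE 0.26, adjusted p = 0.00352 by edgeR, and 0.0572 without the experiment block). In both genes the highest proliferating value, that of experiment 5, lay above the lowest quiescent one. The claudin Cldn3 rose on the log2 scale by 0.77 and the desmosomal plakophilin Pkp1 was the junction gene that fell (log2 fold change -1.01, SE 0.26, adjusted p = 0.0131 by edgeR). For Pkp1, the adjusted p was 0.0659 without quiescent experiment 5.

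Genes of retinoid metabolism changed in both directions. Of 11 tested, 5 rose and 1 fell (54.5% called, against 35.3% of all genes), with a median of 0.13. Aldh1a1, which makes retinoic acid, was at 5.33, 7.39 and 3.64 CPM in proliferating cells and 60.7, 65.1 and 85.5 CPM in quiescent cells (log2 fold change 3.70, SE 0.31, adjusted p = 1.57e-05 by edgeR), and Stra6, which takes up retinol, at 4.6, 1.21 and 1.76 CPM in proliferating cells and 19.8, 25.7 and 37.6 CPM in quiescent cells (log2 fold change 3.47, SE 0.60, adjusted p = 0.00154 by edgeR, and 4.32 without proliferating experiment 5). Dhrs3, which returns retinal to retinol, also rose, at 15.6, 3.98 and 7.39 CPM in proliferating cells and 55.4, 13.5 and 67.2 CPM in quiescent cells (log2 fold change 2.25, SE 0.40, adjusted p = 0.00201 by edgeR). The quiescent and proliferating values of Dhrs3 overlapped, though it was higher in quiescent cells within each experiment. The retinol dehydrogenase Dhrs9 went the other way, at 2.3, 3.64 and 7.1 CPM in proliferating cells and 0.207, 0.489 and 0.298 CPM in quiescent cells (log2 fold change -3.61, SE 0.47, adjusted p = 2.94e-04 by edgeR). In the Notch pathway, 2 of 12 rose and 4 fell, against 16.8% of all genes rising and 18.5% falling. The share called was 50%, against 35.3% of all genes. The receptor Notch3 rose, at 46.2, 19 and 13.2 CPM in proliferating cells and 92.5, 66.9 and 64.2 CPM in quiescent cells (log2 fold change 1.64, SE 0.27, adjusted p = 0.00118 by edgeR), while the ligand Jag1 (-0.87), the DNA-binding partner Rbpj (-1.18) and the feedback target Nrarp (-2.99) fell. Of 20 TGF-β pathway genes, 4 rose, Tgfb2 and the co-receptor Tgfbr3 (1.67) among them, and 4 fell, among them the latent binding protein Ltbp1 (-2.43) and the protease Htra1 (-1.89). Against 16.8% of all genes rising and 18.5% falling, these shares are near the background. The calls numbered 5 without the experiment block, 5 without proliferating experiment 9 and 5 without quiescent experiment 9. For Ltbp1, the adjusted p was 0.0592 without proliferating experiment 9 and 0.0511 without quiescent experiment 5. The YAP targets, which follow cell contact and stretch, gave 7 rises and 3 falls among 18 genes. The share called was 55.6%, against 35.3% of all genes. The calls numbered 4 without the experiment block, where 20% of all genes were called. The matricellular gene Cyr61 was at 35, 63.8 and 50.2 CPM in proliferating cells and 87.8, 75 and 144 CPM in quiescent cells (log2 fold change 1.05, SE 0.25, adjusted p = 0.00968 by edgeR, and 0.0814 without the experiment block), whereas Axl (-1.55) and Nt5e (-2.16), cell surface genes of the same list, fell. For Cyr61, the adjusted p was 0.0505 without proliferating experiment 9.

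Most genes that build ribosomes fell. Of 40 ribosome biogenesis genes, 0 rose and 36 fell (90% called, against 35.3% of all genes), with a median of -0.72. Without the experiment block 17 of the 40 fell, against 11.7% of all genes. The calls numbered 23 without proliferating experiment 9 and 21 without quiescent experiment 9. Dkc1, the pseudouridine synthase of the nucleolus, stood at 39.5, 81.2 and 82.6 CPM in proliferating cells and 16.6, 26.4 and 14.2 CPM in quiescent cells (log2 fold change -1.84, SE 0.25, adjusted p = 3.57e-04 by edgeR), and Npm1, nucleophosmin, at 886, 1687 and 1849 CPM in proliferating cells and 490.3, 787 and 723 CPM in quiescent cells (log2 fold change -1.12, SE 0.22, adjusted p = 0.00319 by edgeR). By experiment the median was -0.40, -0.56 and -1.19, deepest in experiment 9. The 78 cytoplasmic ribosomal protein genes had a median of -0.51, and 22 of them fell and 0 rose, a share called of 28.2% against 35.3% of all genes. Their calls depended on the fit, numbering 1 without the experiment block, 60 in a fit of only the 6 control libraries, 41 by DESeq2, 3 without proliferating experiment 7, 0 without proliferating experiment 9, 0 without quiescent experiment 5 and 2 without quiescent experiment 7. They made up 6.79% ± 1.3 of a library's counts in proliferating cells and 4.96% ± 1.29 in quiescent cells (SD, n = 3). Many ribosomal protein genes have processed copies, so their counts are uncertain. Of 32 genes of sterol and fatty acid synthesis, 0 rose and 21 fell (65.6% called, against 35.3% of all genes). Their median was -0.60. Without the experiment block 13 fell, against 11.7% of all genes. The sterol pathway enzyme Idi1 was at 89.4, 94.9 and 120.4 CPM in proliferating cells and 23.3, 29.7 and 34.9 CPM in quiescent cells (log2 fold change -1.81, SE 0.27, adjusted p = 6.40e-04 by edgeR). Elovl6, a fatty acid elongase, fell too (log2 fold change -1.90), but fatty acid synthase, Fasn, did not pass (log2 fold change -0.23, SE 0.15, adjusted p = 0.26 by edgeR).

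Most lysosomal genes rose. Of 42 lysosome and autophagy genes, 27 rose and 1 fell, against 16.8% and 18.5% of all genes, with a median of 0.51. Without the experiment block 15 rose, against 8.33% of all genes. The calls numbered 16 without proliferating experiment 9 and 17 without quiescent experiment 9. The list made up 0.816% ± 0.111 of a library's counts in proliferating cells and 1.25% ± 0.0956 in quiescent cells (SD, n = 3). Hexa, a lysosomal hexosaminidase, stood at 51.4, 30.2 and 66.9 CPM in proliferating cells and 125, 102 and 141 CPM in quiescent cells (log2 fold change 1.36, SE 0.16, adjusted p = 1.55e-04 by edgeR), and Ctsd, cathepsin D, at 1989.7, 1460.0 and 1583 CPM in proliferating cells and 2897, 2617 and 4090.4 CPM in quiescent cells (log2 fold change 0.92, SE 0.17, adjusted p = 0.00253 by edgeR). The acid glucosidase Gaa (1.17) and the autophagosome proteins Gabarapl1 (1.47) and Map1lc3b (0.83) rose with them. The energy pathways are given beside the 35.3% of all genes called. Of 20 glycolysis genes, 1 rose and 5 fell (30.0% called), Eno1 (-0.92) and Ldha (-0.88) among the latter. Of 45 oxidative phosphorylation genes, 2 rose and 2 fell (8.89% called), the median was -0.010, and the calls fell to 0 without the experiment block and to between 0 and 1 without any single library. The glycolysis calls numbered 3 without quiescent experiment 7.

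Among genes linked to stress and arrest, the p53 and FoxO lists had shares of called genes near that of all genes. Of 24 p53 targets, 6 rose and 1 fell, with a median of 0.26, and 29.2% were called against 35.3% of all genes. Beside Cdkn1a, the detoxifying enzyme Ephx1 was at 134, 96.7 and 109.7 CPM in proliferating cells and 305, 325 and 310.0 CPM in quiescent cells (log2 fold change 1.48, SE 0.16, adjusted p = 9.14e-05 by edgeR), and the antiproliferative gene Btg2 had a log2 fold change of 0.84. For Btg2, the adjusted p was 0.0629 without proliferating experiment 9 and 0.0611 without quiescent experiment 9. Of 23 FoxO targets, which rise when insulin and growth factor signals drop, 7 rose, against 16.8% of all genes rising, and 0 fell. The share called was 30.4%, and without the experiment block 2 rose, against 8.33% of all genes. Bcl2l11, which encodes the apoptosis inducer Bim, stood at 62.7, 38 and 39.5 CPM in proliferating cells and 89.3, 83.9 and 128 CPM in quiescent cells (log2 fold change 1.10, SE 0.21, adjusted p = 0.00285 by edgeR), and the insulin receptor substrate Irs2 at 17.5, 17.3 and 61.1 CPM in proliferating cells and 100.3, 80.8 and 119.8 CPM in quiescent cells (log2 fold change 1.93, SE 0.28, adjusted p = 5.99e-04 by edgeR, and 0.0778 without the experiment block). Of 12 genes often raised in senescence or, for Lmnb1 and the Hmgb genes, lowered in it, 1 rose and 8 fell. The share called was 75%, against 35.3% of all genes. Lmnb1, lamin B1, was at 163, 225 and 186 CPM in proliferating cells and 73.2, 74.2 and 49.9 CPM in quiescent cells (log2 fold change -1.54, SE 0.17, adjusted p = 1.02e-04 by edgeR). The secreted factors Cxcl1 (-1.44), Plau (-1.43) and Igfbp3 (-1.42) fell, and the stress cytokine Gdf15 rose (log2 fold change 1.17, SE 0.17, adjusted p = 5.05e-04 by edgeR, and 0.0521 without the experiment block). Il6, Il1b and Mmp3 had too few counts to be tested. Genes used as references were not constant. Of 17, 2 rose and 7 fell (52.9% called, against 35.3% of all genes). The calls numbered 5 without the experiment block, 2 without proliferating experiment 7, 3 without proliferating experiment 9 and 4 without quiescent experiment 5. They numbered 2 without quiescent experiment 7 and 5 without quiescent experiment 9. B2m rose on the log2 scale by 1.02 and Gapdh fell by 0.48 on the log2 scale, while Hprt was not called (log2 fold change -0.043, SE 0.18, adjusted p = 0.874 by edgeR, 95% interval -0.44 to 0.35) and changed sign under scaling by library totals. For Gapdh, the adjusted p was 0.0681 without proliferating experiment 7, 0.0586 without proliferating experiment 9 and 0.0894 without quiescent experiment 7. The adjusted p of B2m was 0.0606 without the experiment block.

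**Figure D4:**
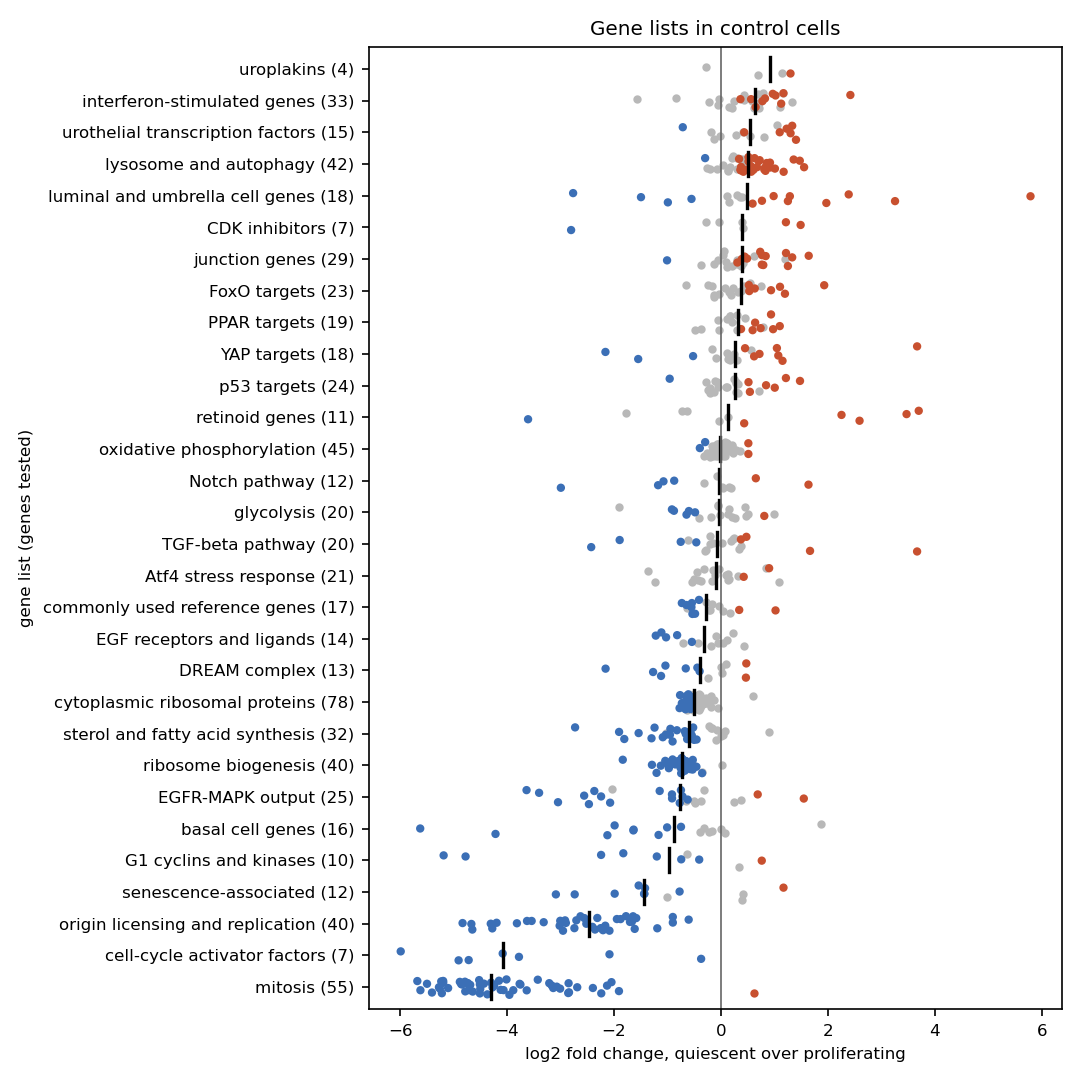
Log2 fold change of quiescent over proliferating control cells (x axis) for every tested gene of 30 lists (rows, number of genes tested in parentheses); red points rose, blue points fell, grey points did not pass the threshold, and the black bar is the median of a list. Medians run from -4.30 for mitosis to 0.92 for the 4 uroplakins. Those of the interferon, urothelial transcription factor, lysosome and junction lists are among the others above 0, and most lists hold grey points.

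Interferon-stimulated genes and Atf4 stress genes were not the same in the 3 experiments, each of which is 1 labelled batch, so experiment and batch cannot be told apart. Of 33 interferon-stimulated genes, 10 rose and 0 fell (30.3% called against 35.3% of all genes), and the calls numbered 1 without the experiment block, 16 without proliferating experiment 5, 5 without proliferating experiment 9 and 5 without quiescent experiment 9. The list's median by experiment was -0.050, 0.54 and 1.27 in control cells and -0.010, 0.80 and 1.13 in Stag2-knockdown cells. Ifi44 rose in all 3, at 3.42, 1.56 and 6.59 CPM in proliferating cells and 9.8, 7.04 and 66.3 CPM in quiescent cells (log2 fold change 2.42, SE 0.34, adjusted p = 4.85e-04 by edgeR, and 0.0763 without the experiment block), whereas Ifit3, among the genes induced most directly by interferon, stood at 0.842, 0.404 and 3.41 CPM in proliferating cells and 0, 0.184 and 1.73 CPM in quiescent cells (log2 fold change -1.58, SE 0.70, adjusted p = 0.106 by edgeR). Of 21 genes of the Atf4 response, which make amino acids and mark their shortage, 2 rose and 0 fell (9.52% called), and the calls numbered 0 without the experiment block, 1 in a fit of only the 6 control libraries, 1 without proliferating experiment 5, 1 without proliferating experiment 7, 1 without quiescent experiment 5 and 0 without quiescent experiment 7. The list's median by experiment was 1.06, -0.010 and -0.94 in control cells and 1.61, -0.10 and -0.39 in knockdown cells. Psat1, of serine synthesis, was at 108, 455 and 515 CPM in proliferating cells and 221, 260.1 and 176 CPM in quiescent cells (log2 fold change -0.54, SE 0.56, adjusted p = 0.488 by edgeR), and Trib3, an Atf4-induced pseudokinase, at 33, 173 and 333 CPM in proliferating cells and 68.9, 193 and 74.8 CPM in quiescent cells (log2 fold change -0.42, SE 0.65, adjusted p = 0.645 by edgeR). In both, the quiescent library was higher in experiment 5 and lower in experiment 9. The list's share of counts was 0.199, 0.458 and 0.586% in proliferating and 0.361, 0.475 and 0.324% in quiescent cells, so the proliferating libraries spread more widely than the quiescent ones.

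**Figure D5:**
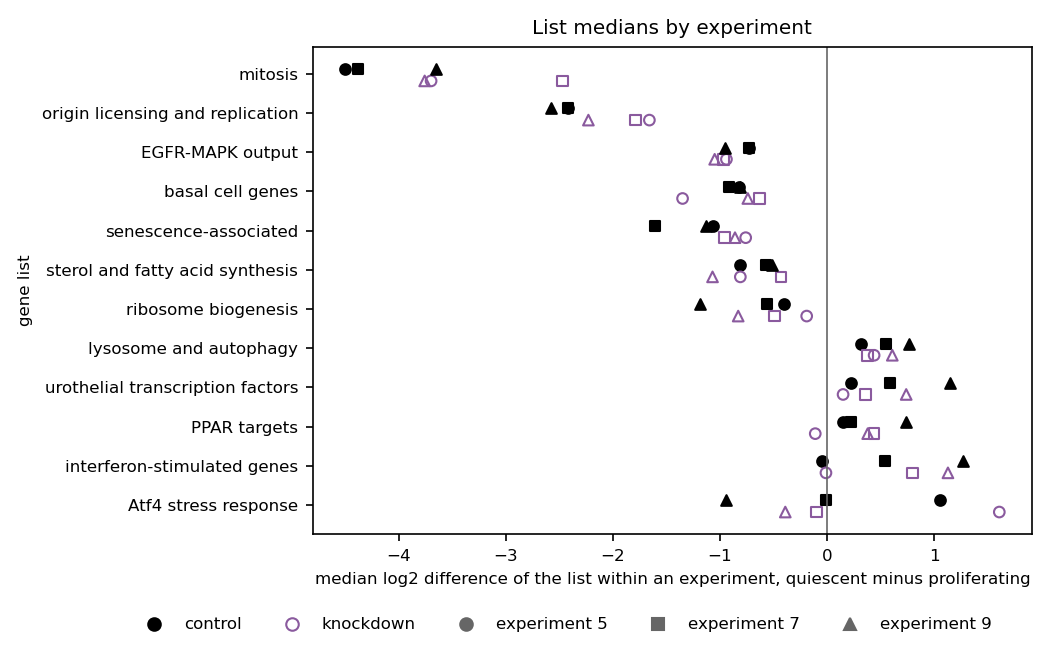
Median log2 difference between the quiescent and the proliferating library of the same experiment (x axis) for 12 gene lists (y axis); black markers are control cells, open purple markers Stag2-knockdown cells, and the shape gives the experiment. The first 10 lists keep their side of 0 in all 3 control experiments, while the Atf4 list runs from 1.06 in experiment 5 to -0.94 in experiment 9 and the interferon list from -0.05 to 1.27.

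A few genes went from under 0.5 CPM in all 3 libraries of 1 state to at least 2 CPM in all 3 of the other. Switched on were 3, Xkr4, Nacad and Cables1. Cables1, an adaptor that links Cdk5 to the Abl kinase, stood at 0.281, 0.231 and 0.341 CPM in proliferating cells and 3.31, 2.94 and 2.33 CPM in quiescent cells (log2 fold change 3.28, SE 0.36, adjusted p = 9.78e-05 by edgeR). Nacad stood at 0.337, 0.231 and 0.114 CPM in proliferating cells and 4.0, 2.08 and 2.92 CPM in quiescent cells (log2 fold change 3.66, SE 0.45, adjusted p = 2.05e-04 by edgeR) and Xkr4 at 0.393, 0 and 0.114 CPM in proliferating cells and 4.07, 2.14 and 2.86 CPM in quiescent cells (log2 fold change 4.12, SE 0.61, adjusted p = 6.43e-04 by edgeR). Switched off were 20, and the 5 with the highest proliferating level were Fat2, Pcolce2, Ccne2, Ska1 and Lypd5. Fat2, an atypical cadherin, was at 2.64, 10.1 and 29.3 CPM in proliferating cells and 0, 0.245 and 0.119 CPM in quiescent cells (log2 fold change -6.58, SE 0.54, adjusted p = 1.35e-05 by edgeR), and Pcolce2, a procollagen C-proteinase enhancer, at 12.3, 15.9 and 10.1 CPM in proliferating cells and 0, 0.489 and 0 CPM in quiescent cells (log2 fold change -6.34, SE 0.55, adjusted p = 2.03e-05 by edgeR). Ska1, of the kinetochore, had a log2 fold change of -5.27 and Lypd5 of -5.67. With so few counts in 1 state these folds are imprecise and depend on the model's prior count. Each of Xkr4, Fat2, Pcolce2, Ska1 and Lypd5 moved by over 1.5-fold without 1 library of its low state, proliferating experiment 5 for Xkr4 and quiescent experiment 7 for the others, and the log2 fold change of Fat2 was -5.74 without quiescent experiment 9.

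The same change of state was measured in Stag2-knockdown cells of the same experiments, in other libraries. There 4096 of the 12406 genes tested changed. In both kinds of cells 3102 genes changed the same way, which is 70.9% of the control calls and 75.7% of the knockdown calls. No gene was called in opposite directions. Of the 4374 genes that changed in control cells, 4322 had the same sign in knockdown cells. The test of the difference itself, the interaction of state and hairpin, gave 0 genes (0%) with edgeR, 590 at an unadjusted p under 0.05 and a lowest adjusted p of 0.0786, while DESeq2 gave 30. By experiment, the mitosis list had a median of -4.50, -4.38 and -3.65 in control and -3.70, -2.47 and -3.76 in knockdown cells. The replication list had -2.42, -2.42 and -2.58 in control and -1.66, -1.79 and -2.23 in knockdown cells, shallower there in all 3 experiments. The EGFR-MAPK list went the other way, with -0.73, -0.73 and -0.95 in control and -0.94, -0.97 and -1.05 in knockdown cells. The differences of these lists were not tested. Cdkn1a had a log2 fold change of 1.22 in control and 1.10 in knockdown cells (interaction adjusted p by edgeR = 0.999), Ccnd2 of 0.76 and 1.06 (adjusted p = 0.999), Krt20 of -0.99 and -0.95 (adjusted p = 0.999), and Aldh1a1 of 3.70 and 1.84 (adjusted p = 0.526). Each of the 10 genes with the largest decreases fell less in knockdown cells, though they were picked by their size in control cells. Among them, Top2a had -5.68 in control and -3.88 in knockdown cells (adjusted p = 0.886) and Mki67 -5.62 and -3.48 (adjusted p = 0.814). The switched-off gene Ccne2 had -4.78 and -2.15 (adjusted p = 0.189), all by the edgeR interaction test. An interaction that misses the threshold does not show that the responses are equal.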

How the data were processed

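Poly(A) RNA of NU1 cells was sequenced from a stranded kit, per the labels' protocols, and the authors deposited raw counts per gene symbol for 12 libraries. The submitters' processing notes name Bowtie, TopHat, HTSeq and DESeq2 and the build mm10, while versions, the gene annotation and the strand setting are not given in the sources used here. ERCC spike-in RNA was added, per the labels' protocols, but no spike-in counts were used here.

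The counts were fitted as deposited with edgeR 4.0.16 in R 4.3.3 by the quasi-likelihood test, with the 4 groups of state and hairpin and the experiment number as a block over all 12 libraries, so that all groups share 1 estimate of the spread. Genes passed the package's expression filter with a minimum count of 10, which left 12406, and TMM factors scaled the libraries. Benjamini-Hochberg adjustment ran over all 12406 genes with a threshold of 0.05. CPM values are counts scaled to a library's total times its TMM factor. Intervals and the floor of 3 counts cover error of counting or of the model only. The experiments pair the libraries, since each is 1 batch in the labels: deviations from the group means correlated with a mean r of 0.526 (0.225 to 0.789, 18 pairs) within experiments and of -0.259 (36 pairs) between them. Deviations of the 3 libraries of a group sum to 0, which pushes the value between experiments below 0, so it is no separate evidence of pairing. No 2 control libraries of the same state held identical values or agreed within sampling noise. The fit was tested on simulated counts.

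Alternatives were no block, median-of-ratios size factors, DESeq2 1.42.0, no filter, a mean count of at least 50, only the 6 control libraries and each control library left out. Scaling by library totals was added after seeing the data. Named genes are the 10 largest increases and decreases among called genes whose log2 CPM averaged at least 2 and whose direction was the same in the 3 experiments, members of the 30 gene lists, genes switched between under 0.5 and at least 2 CPM, and the promoters shown. Some list members are counted but not reported by name here. The comparison, lists and rules were chosen with earlier results of these data known.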

Additional observations from a re-analysis of the deposited data

Results flagged for a closer look

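The median of the p53 target list had a different sign in the 2 kinds of cells. In control cells the median log2 difference of its 24 genes between the quiescent and the proliferating library was 0.24, 0.26 and 0.23 in experiments 5, 7 and 9, and in Stag2-knockdown cells it was -0.09, -0.01 and -0.12. All 3 control values were above 0 and all 3 knockdown values below it, which is why the list stands out, but the medians of the knockdown cells lie close to 0 and the difference of the lists was not tested. With edgeR, 0 genes of the whole table had a different response in the 2 kinds of cells at an adjusted p under 0.05, 590 did at an unadjusted p under 0.05, and DESeq2 called 30.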

How the results depend on the processing

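Of 159 named genes, 136 were called, and none of these changed direction in any of the 13 alternatives. With no replicate block, which treats the 3 paired experiments as unpaired, 2481 genes changed, 1033 higher and 1448 lower, 1166 of them by at least 2-fold, and 121 of the 136 named calls held. Leaving out 1 control library at a time gave 2839 to 4058 changed genes, 1289 to 1927 higher and 1547 to 2131 lower, with the lowest totals without a library of experiment 9; an arm left with 2 libraries takes its spread from all groups. The number of genes with a different response in knockdown cells was 30 by DESeq2 and 1 with no filter on low counts, and 0 in each fit with 1 library left out. The cause of these shifts was not tested. The other size factors, DESeq2, both other filters, the 6 control libraries alone and library totals kept each count of changed genes within 1.5 times.

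The medians of 25 of 30 lists kept their sign throughout, and those of the TGF-β, Notch, glycolysis, oxidative phosphorylation and Atf4 lists did not. Genes not called changed sign near 0. Over the fits that leave out 1 library, the log2 fold change ran from -0.4986 to 0.0351 for Cdkn2d, from -0.1499 to 0.0935 for Cdkn1b, from -0.1698 to 0.1433 for Hprt, from -0.0511 to 0.2525 for Erbb2, from -0.0455 to 0.186 for Rb1, from -0.0471 to 0.3858 for Krt18 and from -0.9779 to 0.3427 for Trib3. Library totals gave 0.019 for Cdkn1b and 0.0092 for Hprt. In simulated counts for this comparison (12406 genes), 81% of 100 genes changed by 1 on the log2 scale were called and 100% of 100 changed by 2. Among the unchanged genes 6 were called, and smaller changes were not simulated. Changed genes were drawn only from those with an expected count over 50, so these shares do not cover weakly expressed genes. The counts were drawn from the fitted kind of model, with the experiment effect equal in both states. Far fewer genes were changed than were called in the data.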
